A study of Homo sapiens with 4 samples.

Results

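Mitotic kinases, spindle checkpoint proteins and the proteins of centromere, spindle and cytokinesis were examined in the human cell line DLD-1, established from a colorectal adenocarcinoma. The set holds 55 genes, chosen by symbol on the array platform, of 18336 genes that the platform names, and all 55 were found, on 75 probes. SGO1 and SGO2 are listed there as SGOL1 and SGOL2. The control cells carried the plasmid pCMV6-AC-GFP, which encodes a green fluorescent protein. The other cells carried pCMV6-HMGA2 tagged with tGFP, in which the cytomegalovirus promoter of the plasmid drives HMGA2, a chromatin protein of embryonic tissue and tumours. Both lines were stable clones selected with the antibiotic G418 at 1 mg/mL and kept at 0.5 mg/mL, and cells were otherwise untreated. How many clones a line stands for is not stated. There were 4 arrays of 1 colour, 2 for each line. No label says whether the 2 are separate cultures, and the p-values then reflect only how far these arrays differ, which may be technical.

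Entry into mitosis is driven by CDK1 bound to cyclin B, which the CDC25 phosphatases switch on. Aurora and polo-like kinases then build the spindle, kinetochores join chromosomes to it, and the spindle checkpoint holds back the anaphase promoting complex (APC/C) until all are attached. Most of these genes are transcribed late in the cell cycle, under control of the MuvB complex with B-MYB and FOXM1, and their RNA marks proliferating cells. In RNA of whole cultures, fewer cells in mitosis and less RNA per cell cannot be told apart.

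Median probe intensity ran from 607 to 767 per array and summed intensity from 185042604 to 205024463. HMGA2 itself did not give a clear check of the labels. One of its probes read 5576 and 5270 on the vector-labelled arrays and 3917 and 4369 on the HMGA2-labelled ones, a log2 difference of -0.39. The other read 2728 and 3493 against 4596 and 3466, a log2 difference of 0.37. In a limma fit of single probes with dim ones left out, the first was called lower (adjusted p = 0.018), against the labels. The rise on the other was not called (adjusted p = 0.129), and neither probe was called after quantile normalization. Groups are therefore named by their labels throughout, and every direction rests on them. The line's identity was checked on markers. All 9 measured colorectal epithelial markers lay above the limit for dim genes in both groups, and their summed intensity was 558155 and 531250 on the vector-labelled arrays and 621393 and 627082 on the HMGA2-labelled ones. For 4 leukocyte markers, 2 of them below the limit in both groups, the sums were 5657 and 6469 against 4055 and 3760. Over all arrays 7 fibroblast markers, 4 of them below the limit in both groups, summed to 4371 to 6181. The 5 endothelial markers, 4 of them above the limit in both groups, summed to 2222 to 2605. Passing the limit therefore does not by itself mark a cell type. Much of the fibroblast sum came from COL1A1, at 3050 to 4868, and much of the leukocyte sum from CD14, at 3014 to 5183. Single epithelial markers moved both ways: KRT8 fell by 2.43 log2 and CDX2 by 0.62, VIL1 rose by 1.23, and EPCAM, which carries much of the sum, rose by 0.26. The part of these levels in the results was not tested.

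The promoters of these genes were read first, since many mitotic genes share an arrangement of CCAAT boxes, bound by the factor NF-Y, and a downstream cell cycle genes homology region (CHR), bound by MuvB. RefSeq windows on GRCh38.p14, reaching from 250 bases before to 50 after a gene's start, were found for 46 of the 55 genes. A CHR, searched as TTTGAA or TTCGAA on both strands, stood in 37 of the 46 genes (80.4%) and in 17.5% of 15843 protein-coding genes. A CCAAT box, searched as CCAAT on both strands, stood in 37 of 46 as well, against 42.1% of protein-coding genes, and 28 of 46 held both motifs, against 7.28%. By window, which does not depend on how many windows a gene has, the CHR was in 40 of 62 (64.5%) for these genes and in 13.7% of 22199 for protein-coding genes. By the calls described below, a CHR was in 17 of 21 genes called lower, 4 of 4 called higher and 16 of 20 not called. A match is a match of letters and not a shown binding site. Windows were not matched for UBE2C, TPX2, AURKA, FOXM1, CENPH, BIRC5, BUB3, RACGAP1 and TTK.

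The 150 bases before the start are shown for 4 genes that were lower on the HMGA2-labelled arrays: CKS1B, HMMR, CCNB2 and ASPM. They are also shown for 2 that were higher (CDCA8 and NCAPD2) and 2 that were not called (PLK1 and MKI67). Each gene shown holds both motifs, as did 28 of the 46 genes with a window, but their order differs. Capitals mark both motifs on either strand, so a CHR reads TTTGAA or TTCAAA and a CCAAT box CCAAT or ATTGG. In CDCA8, and at one of the sites of MKI67, the capitals of a CHR and a CCAAT box run into each other.
CKS1B (chr1:154974531-154974680, plus strand): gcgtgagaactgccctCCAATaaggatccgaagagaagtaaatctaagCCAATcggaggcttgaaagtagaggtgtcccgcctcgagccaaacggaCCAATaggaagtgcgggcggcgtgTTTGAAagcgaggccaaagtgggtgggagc
HMMR (chr5:163460482-163460631, plus strand): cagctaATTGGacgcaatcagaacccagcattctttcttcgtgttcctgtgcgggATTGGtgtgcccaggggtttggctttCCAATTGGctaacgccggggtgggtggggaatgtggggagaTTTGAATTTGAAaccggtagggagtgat
CCNB2 (chr15:59104996-59105145, plus strand): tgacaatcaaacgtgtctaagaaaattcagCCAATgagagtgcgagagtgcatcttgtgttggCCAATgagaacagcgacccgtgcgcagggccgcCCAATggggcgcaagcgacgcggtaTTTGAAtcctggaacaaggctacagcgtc
ASPM (chr1:197146670-197146819, minus strand): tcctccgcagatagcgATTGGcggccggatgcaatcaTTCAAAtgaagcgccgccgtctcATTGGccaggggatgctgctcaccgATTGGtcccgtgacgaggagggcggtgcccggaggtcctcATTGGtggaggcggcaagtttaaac
CDCA8 (chr1:37692366-37692515, plus strand): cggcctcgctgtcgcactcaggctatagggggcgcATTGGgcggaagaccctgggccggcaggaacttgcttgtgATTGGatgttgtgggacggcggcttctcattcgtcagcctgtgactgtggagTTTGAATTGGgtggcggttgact
NCAPD2 (chr12:6493952-6494101, plus strand): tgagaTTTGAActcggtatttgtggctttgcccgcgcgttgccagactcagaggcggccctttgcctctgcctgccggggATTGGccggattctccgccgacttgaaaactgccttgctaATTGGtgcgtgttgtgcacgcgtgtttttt
PLK1 (chr16:23678739-23678888, plus strand): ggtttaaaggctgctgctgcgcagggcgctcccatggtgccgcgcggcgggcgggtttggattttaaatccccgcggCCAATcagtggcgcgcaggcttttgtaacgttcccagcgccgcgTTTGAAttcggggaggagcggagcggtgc
MKI67 (chr10:128126424-128126573, minus strand): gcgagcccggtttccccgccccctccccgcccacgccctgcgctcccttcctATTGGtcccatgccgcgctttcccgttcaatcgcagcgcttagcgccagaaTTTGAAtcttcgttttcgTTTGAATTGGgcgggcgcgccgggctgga
In CKS1B, CCNB2 and PLK1 the CHR began 30, 29 and 29 bases before the start. HMMR held 2 adjoining copies, at 28 and 22 bases, and MKI67 held 2, at 47 and 29. In CDCA8 it began 23 bases before the start, whereas in ASPM and NCAPD2 it lay farther off, at 113 and 145 bases. The CHR of ASPM stood downstream of a CCAAT box at 134 bases but upstream of those at 90, 65 and 25. In NCAPD2 the CHR stood upstream of both boxes shown, at 70 and 30 bases. Further boxes of NCAPD2, at 199 and 170 bases, lay upstream of the bases shown. The CCAAT boxes shown for CCNB2, at 120, 87 and 54 bases, stood upstream of its CHR at even steps. A further box of CCNB2 lay upstream of the bases shown, outside this spacing.

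**Figure D1:**
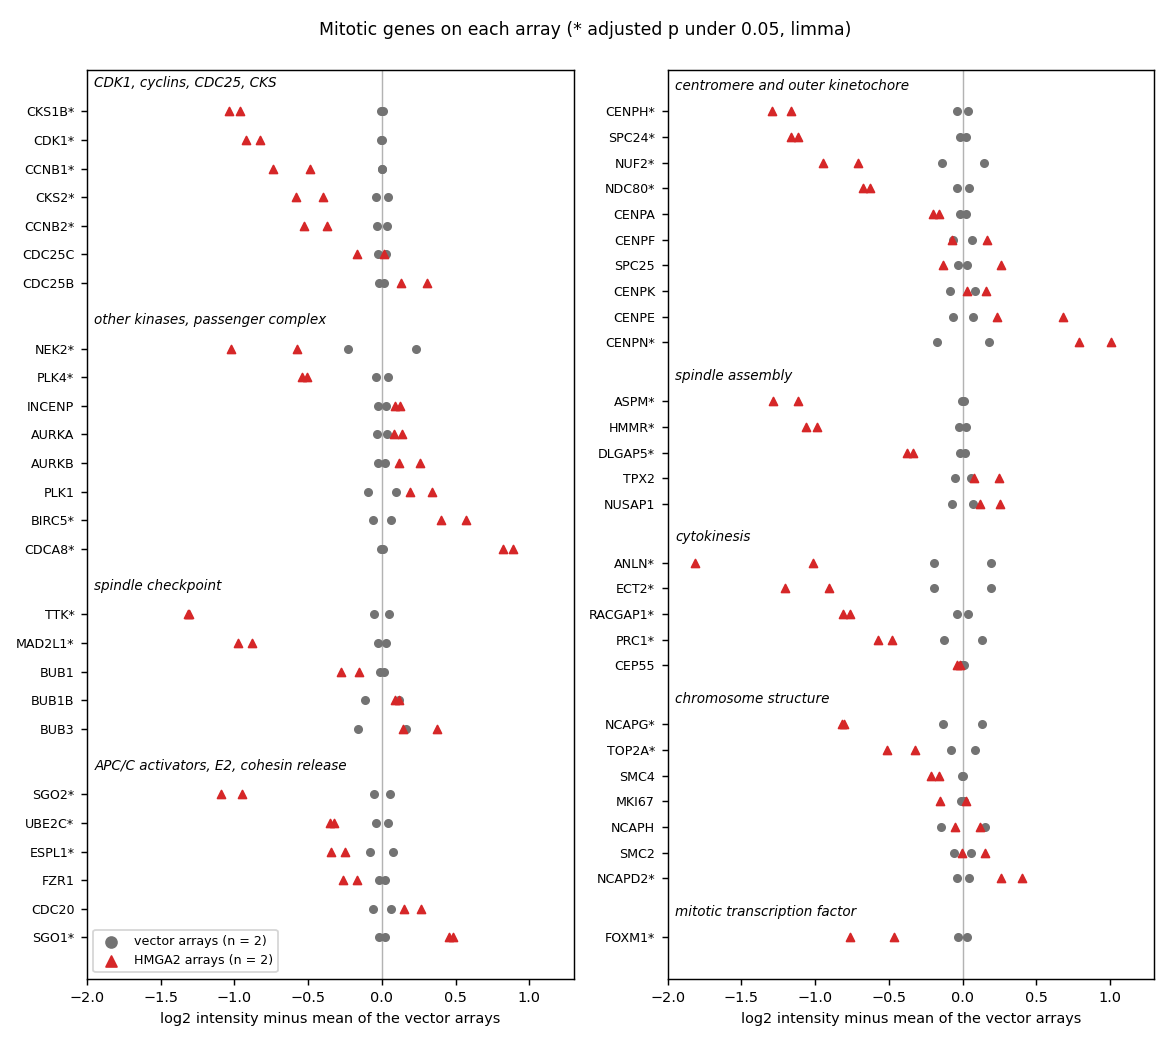
Level of each of the 54 tested mitotic genes on every array, as log2 intensity minus the mean of the 2 vector-labelled arrays (horizontal axis), grouped by role. Circles are the vector-labelled arrays, triangles the HMGA2-labelled ones, and an asterisk marks an adjusted p under 0.05 in limma. Triangles lie left of both circles for 31 genes and right of both for 14, beside 43.6% and 27.7% of all genes.

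Mitotic genes were more often lower than higher on the HMGA2-labelled arrays. Each gene was represented by its brightest probe, and 54 of the 55 passed the filter that left out the dimmest 25% of genes, which lay below 7.87 log2 (intensity 234). PTTG1, or securin, the inhibitor of separase, did not pass: its probe read 38 and 75 on the vector-labelled arrays and 98 and 27 on the HMGA2-labelled ones. Of the 54, limma called 26 lower and 5 higher at an adjusted p of 0.05, and 23 were not called. Among all 13752 genes tested, 28.7% were called lower and 14.9% higher. The median log2 difference was -0.21 for the mitotic genes and -0.09 for all genes. Levels on both HMGA2-labelled arrays lay below both vector-labelled ones for 31 mitotic genes and above for 14, beside 43.6% and 27.7% of all genes.

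Mitotic genes are bright on these arrays, and bright genes are called more often. Of the 54, 51 were at or above the 50th percentile of mean level. Among these 51, tested with all 9168 genes at or above that level, 29 (56.9%) were called, beside 53.0% of the 9168, so the share of calls was near the background. The split differed from it more: 24 (47.1%) were lower, beside 33.6%, and 5 (9.80%) were higher, beside 19.5%. Most differences were smaller than 1 log2. Of the 54 genes tested 8 were called lower by at least 1 log2, a larger share than the 8.17% among all genes tested. None was called higher by as much, beside 1.31% of all genes tested.

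The scaling of the arrays moved the zero point of every difference. Quantile normalization raised the median of all genes by 0.18 log2, to 0.09, and the median of the mitotic genes became -0.12. It then called 25 mitotic genes lower and 11 higher, beside 22.6% and 28.0% of all genes. All 5 rises and 25 of the 26 falls were called in both versions. ESPL1 was the fall that was lost, and the 6 rises gained were CDC25B, PLK1, AURKB, CDC20, CENPE and TPX2. Subtracting array medians raised the median of all genes by 0.22, and 16 mitotic genes were then lower and 11 higher, beside 18.0% and 27.0% of all genes (45.0% in either direction). The median of the mitotic genes was then 0.0065, and the falls of CCNB1, CCNB2, CKS2, PLK4, UBE2C, ESPL1, DLGAP5, PRC1, TOP2A and FOXM1 were no longer called. In the paragraphs that follow, values are as deposited, and the quantile value is given where it changes a call.

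**Figure D2:**
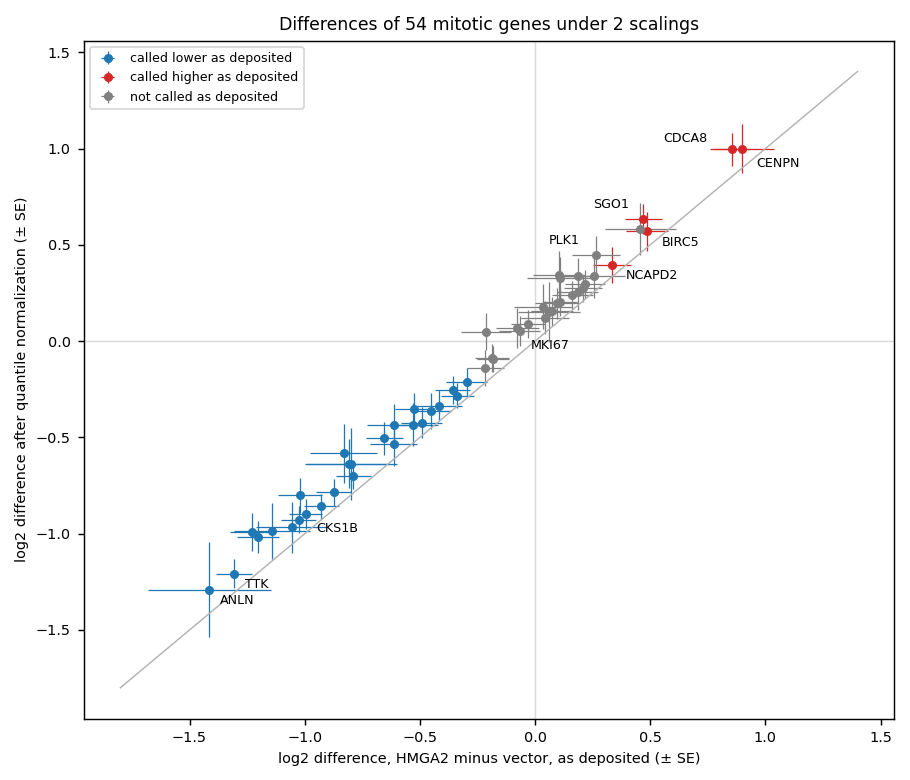
Log2 difference of each of the 54 genes as deposited (horizontal axis) and after quantile normalization (vertical axis), with SE bars and the line of equal values. Colours give the call as deposited. Every point lies above the line, from ANLN at the lower left (-1.41 and -1.29) to CENPN at the upper right (0.90 and 1.00).

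**Figure D3:**
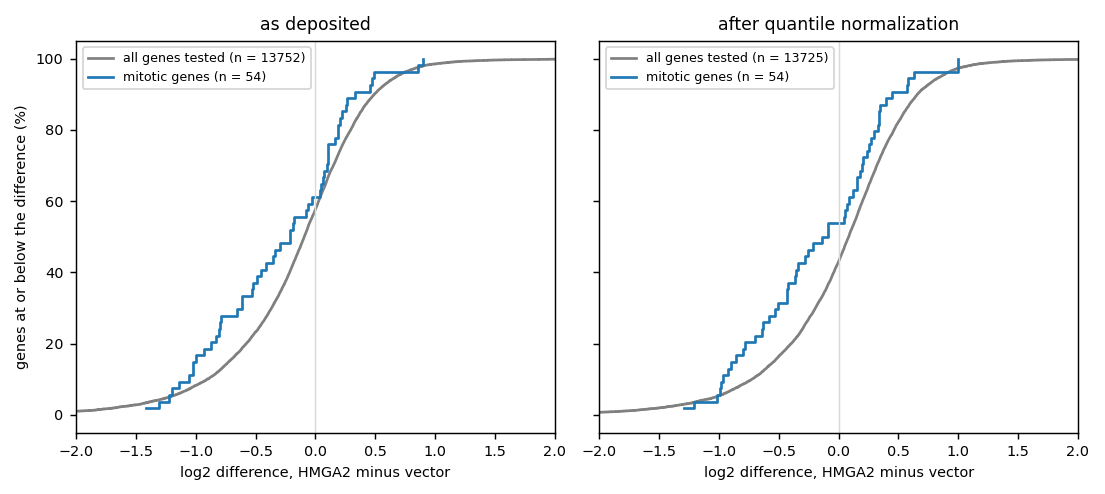
Cumulative share of genes (vertical axis, percent) at or below each log2 difference (horizontal axis) for all genes tested and for the mitotic genes, as deposited and after quantile normalization. The medians of the mitotic genes and of all genes are -0.21 and -0.09 as deposited and -0.12 and 0.09 after quantile normalization, where the curve holds the 13725 genes that passed the filter in both versions.

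CDK1, its cyclins and its CKS subunits were lower on the HMGA2-labelled arrays. CDK1, the kinase that drives entry into mitosis, read 25411 and 25530 on the vector-labelled arrays and 13479 and 14352 on the HMGA2-labelled ones. The groups were far apart, and the log2 difference was -0.87 (SE 0.08, adjusted p = 0.000462). Its partner CCNB1, cyclin B1, read 23891 and 23899 against 17009 and 14322, a log2 difference of -0.61 (SE 0.10, adjusted p = 0.00431). CCNB2, cyclin B2, read 20435 and 19518 against 15407 and 13830, at -0.45 log2 (SE 0.09, adjusted p = 0.00771). CKS1B and CKS2 encode small subunits that dock CDK complexes on their substrates. CKS1B fell most in this group, from 67039 and 67582 to 34614 and 32887, a log2 difference of -0.996 (SE 0.07, adjusted p = 0.000272). CKS2 read 61177 and 64700 against 41959 and 47642, at -0.49 log2 (adjusted p = 0.0059).

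CDC25B and CDC25C, phosphatases that remove the inhibitory phosphates from CDK1, were not called as deposited. CDC25B read 19371 and 19824 on the vector-labelled arrays and 21433 and 24236 on the HMGA2-labelled ones. Its log2 difference of 0.22 did not pass (adjusted p = 0.0925), but after quantile normalization it did, at 0.30 (adjusted p = 0.0221). CDC25C overlapped between the groups, with 7847 and 7548 against 7782 and 6843 (log2 -0.08, adjusted p = 0.554). In all, 5 of 7 genes of this group fell and 0 rose, with 2 not called, beside 28.7% and 14.9% of all genes.

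Other mitotic kinases and the chromosomal passenger complex held changes in both directions. The passenger complex joins AURKB to INCENP, BIRC5 (survivin) and CDCA8 (borealin), and corrects wrong attachments at centromeres. CDCA8 rose from 6481 and 6424 to 11930 and 11417, a log2 difference of 0.85 (SE 0.08, adjusted p = 0.000539). BIRC5 read 29422 and 26984 on the vector-labelled arrays and 41913 and 37158 on the HMGA2-labelled ones, at 0.49 log2 (SE 0.09, adjusted p = 0.00738). For both genes every HMGA2-labelled array lay above every vector-labelled one. AURKB, the kinase of the complex, read 6880 and 6665 against 8091 and 7350 and was not called (log2 0.19, adjusted p = 0.135), though it passed after quantile normalization (0.34, adjusted p = 0.0307). INCENP, its scaffold, was weak in signal, though above the limit for dim genes, and was not called. It read 591 and 614 against 641 and 657 (log2 0.11, adjusted p = 0.583).

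Among the remaining kinases PLK4, which starts centriole duplication, fell from 7613 and 7210 to 5217 and 5084 (log2 -0.52, SE 0.08, adjusted p = 0.00362). NEK2, which separates the centrosomes, varied more between arrays of one group. It read 11491 and 8373 on the vector-labelled arrays and 4823 and 6579 on the HMGA2-labelled ones, at -0.80 log2 (SE 0.20, adjusted p = 0.02). PLK1, the main polo-like kinase of mitosis, read 4448 and 5058 against 5421 and 5991. Its log2 difference of 0.26 was not called (adjusted p = 0.0867) but passed after quantile normalization (0.45, adjusted p = 0.015). AURKA, the Aurora kinase of the spindle poles, read 34916 and 33307 against 37419 and 36098 and was called in neither version (log2 0.11, adjusted p = 0.28, and 0.20, adjusted p = 0.0624). In this group of 8 genes 2 fell and 2 rose, beside 28.7% and 14.9% of all genes.

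In the spindle checkpoint 2 of 5 genes fell and 0 rose, beside 28.7% and 14.9% of all genes. TTK, also called MPS1, the kinase that starts checkpoint signalling at unattached kinetochores, read 25184 and 23448 on the vector-labelled arrays. On the HMGA2-labelled ones it read 9837 and 9788, a log2 difference of -1.31 (SE 0.08, adjusted p = 0.000165). MAD2L1, which binds and holds CDC20, fell from 45071 and 43451 to 22455 and 24073 (log2 -0.93, SE 0.08, adjusted p = 0.000392). The checkpoint kinase BUB1 was lower on both HMGA2-labelled arrays, at 19400 and 17769 against 21753 and 21353, but did not pass (log2 -0.22, adjusted p = 0.0747). BUB1B, or BUBR1, overlapped, with 2185 and 1858 against 2181 and 2145 (log2 0.10, adjusted p = 0.504). BUB3, which brings both to kinetochores, also overlapped, with 115449 and 92158 against 113931 and 133500 (log2 0.26, adjusted p = 0.162).

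Among 6 tested activators of the APC/C and genes of sister chromatid release 3 fell and 1 rose, beside 28.7% and 14.9% of all genes. The paralogues SGO1 and SGO2 were called in opposite directions. Shugoshins shield cohesin at centromeres from early removal. SGO2 fell from 5250 and 4875 to 2374 and 2620 (log2 -1.02, SE 0.10, adjusted p = 0.000624). SGO1 rose on its brightest probe, from 5888 and 6051 to 8200 and 8344 (log2 0.47, SE 0.08, adjusted p = 0.00458), but its probes did not agree, as described below. UBE2C, the ubiquitin-conjugating enzyme of the APC/C, read 59009 and 55787 on the vector-labelled arrays and 44997 and 45776 on the HMGA2-labelled ones (log2 -0.34, SE 0.07, adjusted p = 0.0109). ESPL1, separase, read 20147 and 18099 against 15022 and 16091. Its difference of -0.30 log2 passed as deposited (adjusted p = 0.0381) and not after quantile normalization (-0.21, adjusted p = 0.0622). CDC20, the activator of the APC/C in mitosis, read 90616 and 83097 against 96502 and 104132. It was called after quantile normalization only (0.27, adjusted p = 0.0236, against 0.21, adjusted p = 0.0824, as deposited). FZR1, or CDH1, its activator in late mitosis and the next growth phase, was not called (1273 and 1312 against 1150 and 1079, log2 -0.21, adjusted p = 0.164).

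At the centromere and outer kinetochore 4 of 10 genes fell and 1 rose, beside 28.7% and 14.9% of all genes. NDC80, NUF2, SPC24 and SPC25 are the 4 subunits of the NDC80 complex, which holds the microtubule. SPC24 fell from 707 and 726 to 319 and 331 (log2 -1.14, SE 0.16, adjusted p = 0.0027). Its HMGA2-labelled values were not far above the limit for dim genes, 234. NUF2 read 2183 and 1794 on the vector-labelled arrays and 1025 and 1207 on the HMGA2-labelled ones (log2 -0.83, SE 0.14, adjusted p = 0.00531). NDC80 read 9540 and 10102 against 6347 and 6136 (log2 -0.65, SE 0.08, adjusted p = 0.00155). SPC25, the partner of SPC24, overlapped between the groups, at 16538 and 15857 against 19350 and 14765, and was not called (log2 0.06, SE 0.13, adjusted p = 0.743). Thus 3 of the 4 subunits were called lower.

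CENPH, of the inner kinetochore, fell from 3560 and 3384 to 1418 and 1550, a log2 difference of -1.23 (SE 0.10, adjusted p = 0.000373). CENPK, which works beside it in the same subcomplex, overlapped and was not called (14617 and 13015 against 14088 and 15402, log2 0.09, adjusted p = 0.461). CENPN, a reader of centromeric nucleosomes, rose on its brightest probe from 18506 and 14495 to 28300 and 32897 (log2 0.90, SE 0.14, adjusted p = 0.00341). CENPA, the histone that marks the centromere, read 31571 and 30682 on the vector-labelled arrays. On the HMGA2-labelled ones it read 27017 and 27831, lower on both but not called (log2 -0.18, SE 0.07, adjusted p = 0.0851). CENPF, of the outer corona, did not pass (log2 0.04, adjusted p = 0.762). The kinesin CENPE read 9207 and 8382 against 10329 and 14075, just outside the threshold as deposited (log2 0.46, SE 0.15, adjusted p = 0.0544) and inside it after quantile normalization (0.58, adjusted p = 0.0166).

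Of 5 spindle assembly genes 3 fell and 0 rose, beside 28.7% and 14.9% of all genes. ASPM, which focuses spindle poles, fell from 8589 and 8509 to 3509 and 3937 (log2 -1.20, SE 0.09, adjusted p = 0.000327). HMMR, a spindle protein and hyaluronan receptor, read 20030 and 19401 on the vector-labelled arrays and 9441 and 9925 on the HMGA2-labelled ones (log2 -1.03, SE 0.08, adjusted p = 0.000313). DLGAP5, which stabilises kinetochore fibres, fell less, from 15444 and 15109 to 11755 and 12084 (log2 -0.36, SE 0.07, adjusted p = 0.0105). TPX2, the activator of AURKA on the spindle, read 57799 and 53664 against 58765 and 66062 and passed only after quantile normalization (0.24, adjusted p = 0.0364, against 0.16, adjusted p = 0.187). NUSAP1, a microtubule bundler, was called in neither version (log2 0.18, adjusted p = 0.145, as deposited).

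Cytokinesis had the lowest median, -0.79 log2, with 4 of 5 genes lower and 0 higher, beside 28.7% and 14.9% of all genes. ANLN, the actin-binding anillin of the cleavage furrow, showed the largest fall of all 54 genes and also the widest spread between arrays of one group. It read 19941 and 15232 on the vector-labelled arrays and 4957 and 8629 on the HMGA2-labelled ones (log2 -1.41, SE 0.27, adjusted p = 0.00713). ECT2, the exchange factor that activates RhoA at the furrow, read 76426 and 58515 against 29051 and 35636 (log2 -1.06, SE 0.15, adjusted p = 0.00285). RACGAP1, which binds ECT2 at the midzone, fell from 24612 and 23437 to 13666 and 14143 (log2 -0.79, SE 0.08, adjusted p = 0.000644). These values of ECT2 and RACGAP1 are from their brightest probes, and their second probes were flat, at -0.01 and -0.11 log2, as described below. PRC1, the bundler of midzone microtubules, read 15930 and 19053 against 11674 and 12478 (log2 -0.53, SE 0.11, adjusted p = 0.00949). CEP55, which acts last, in abscission, read 12067 and 11888 against 11656 and 11811 and was not called (log2 -0.03, SE 0.07, adjusted p = 0.778).

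Genes of chromosome structure were mixed, with 2 of 7 lower and 1 higher, beside 28.7% and 14.9% of all genes. TOP2A, the topoisomerase that untangles sister chromatids, read 75713 and 67706 on the vector-labelled arrays and 50193 and 57305 on the HMGA2-labelled ones (log2 -0.42, SE 0.10, adjusted p = 0.0162). MKI67, the proliferation marker Ki-67, which coats mitotic chromosomes, overlapped between the groups, with 10636 and 10458 against 9479 and 10698. It was not called (log2 -0.07, SE 0.09, adjusted p = 0.59). Among the condensin I subunits NCAPG fell from 586 and 704 to 368 and 365 (log2 -0.81, SE 0.18, adjusted p = 0.0133). Its HMGA2-labelled values, too, were not far above the limit for dim genes, 234. NCAPD2 rose on its brightest probe from 43838 and 41451 to 56432 and 51062 (log2 0.33, SE 0.08, adjusted p = 0.0196). NCAPH was not called (log2 0.03, adjusted p = 0.845), nor were SMC2 (0.07, adjusted p = 0.546) and SMC4 (-0.19, adjusted p = 0.0884), the ATPases of both condensins. FOXM1, the transcription factor of mitotic genes, fell from 6449 and 6709 to 3881 and 4759 (log2 -0.61, SE 0.12, adjusted p = 0.0075).

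Different probes of one gene did not always agree. Of the 55 genes 15 had more than 1 probe. Fitted with every probe as the unit, 43 of the 75 probes were called, beside 35.4% of all probes that name 1 gene. These shares differ in brightness: the 35.4% covers dim probes, while of the 75 only the probe of PTTG1 was dim. In this fit 3 of the 15 (20.0%) had probes called in opposite directions, against 6.61% of all tested genes with several probes (315 of 4763). After quantile normalization, with dim probes still included, it was 1 of the 15 (6.67%), NCAPD2, against 7.94% of all such genes. That fit gave the shared error 40.0 prior degrees of freedom against 5.09 once dim probes were left out, so the adjusted p-values for probes here are those with dim probes left out, a setting chosen after seeing the data. Among the 3, CENPN fell on its dimmer probe, from 5621 and 5973 to 4963 and 3899 (log2 -0.40, adjusted p = 0.045), against the rise of 0.90 on the brighter, and this fall was not called after quantile normalization (-0.20, adjusted p = 0.312). NCAPD2 fell on its other probe from 29085 and 26520 to 18752 and 20636 (log2 -0.50, adjusted p = 0.00452). SGO1 had 3 probes, of which 1 fell from 1800 and 1764 to 1187 and 785 (log2 -0.88, adjusted p = 0.00952) and 1 did not pass (0.22, adjusted p = 0.25). With dim probes left out, SGO1 was called both ways after quantile normalization too, as was NCAPD2. For SGO1 the brightest probe then gave 0.63 (adjusted p = 0.00247) and the falling probe -0.62 (adjusted p = 0.0448). Thus 3 of the 5 genes called higher had another probe called lower as deposited.

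BUB3, not called on its brightest probe, fell on the other from 8050 and 8676 to 3845 and 4465 (log2 -1.01, adjusted p = 0.000398). AURKB fell by 0.29 log2 on its dimmer probe (adjusted p = 0.0383), a call lost after quantile normalization (-0.08, adjusted p = 0.433). The second probes of ECT2 (log2 -0.01) and RACGAP1 (-0.11) were flat where the brightest fell. Falls were shared by every probe for CKS1B, whose 3 probes gave -0.996, -1.01 and -1.65 log2, and for TTK, at -1.31 and -1.71. The much dimmer second probe of CDK1 read 524 and 420 against 367 and 334 and did not pass (log2 -0.42, adjusted p = 0.155). UBE2C fell by 1.11 on a probe nearly as bright as its brightest, which gave -0.34, and the dimmest, at -0.24, did not pass. For NEK2 the 3 probes gave -0.80, -1.19 and -0.42, and the last did not pass. BIRC5 rose by 0.49 and 0.28 on 2 probes, while the last gave 0.03. Sources used here do not give the transcripts that each probe detects. The other 40 genes rest on 1 probe each.

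**Figure D4:**
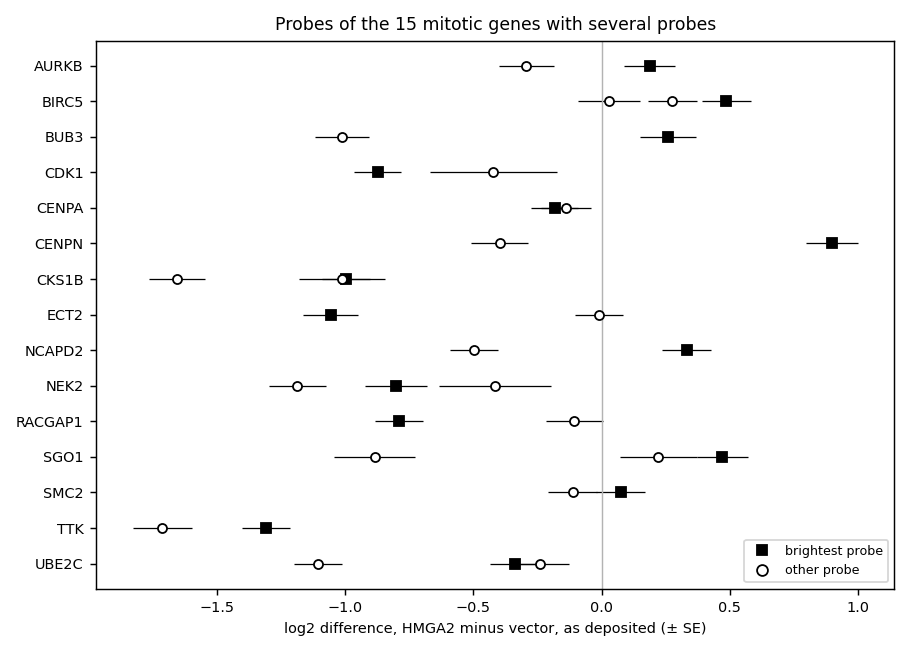
Log2 difference with SE (horizontal axis, intensities as deposited, fit of every probe) for each probe of the 15 mitotic genes that have several. Filled squares are the brightest probe of a gene, open circles the others. At least 1 circle stands on the other side of zero from the square for AURKB, BUB3, CENPN, NCAPD2, SGO1 and SMC2. For SGO1 this holds for 1 of its 2 circles, and for the other 9 genes all stand on the same side.

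Other genes of mitosis, in 6 lists chosen by role, were called at shares near those of all genes. Of 94 on the platform 90 were tested, and 27 (30.0%) were lower and 15 (16.7%) higher, beside 28.7% and 14.9% of all genes. Their median log2 difference was -0.14. After quantile normalization 18 were lower and 24 higher, beside 22.6% and 28.0% of all genes. Among 13 tested core subunits of the APC/C 5 fell and 3 rose: ANAPC7 (log2 -1.31) and CDC23 (-0.92) were lower, and ANAPC16 (0.84) and ANAPC11 (0.80) higher. With the mean of its probes ANAPC16 became -0.04 and was not called. Among 27 further centromere and kinetochore genes 7 fell and 4 rose. CENPM fell from 18231 and 17894 to 6848 and 6677 (log2 -1.42), CENPQ fell by 1.15 log2 and SKA2 by 1.19. SKA1, a subunit of the same microtubule-binding complex as SKA2, rose by 0.72 log2.

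Of 14 genes of cohesin and its regulators 5 fell and 2 rose, beside 28.7% and 14.9% of all genes. The largest changes were falls of STAG2 (log2 -1.25), a cohesin subunit on the X chromosome, HDAC8 (-0.79), the cohesin deacetylase, SMC3 (-0.61) and ESCO1 (-0.47, called as deposited only). Of the 3 subunits particular to condensin II 1 rose, NCAPH2 at 0.47 log2, and 0 fell, beside 14.9% and 28.7% of all genes. Among 19 regulators of mitotic entry and exit 5 fell and 3 rose, beside 28.7% and 14.9% of all genes. CDC25A, the CDC25 phosphatase that also acts at the start of S phase, fell from 10445 and 10795 to 3452 and 4181 (log2 -1.48, SE 0.11, adjusted p = 0.000316). BORA, the cofactor through which AURKA activates PLK1, read 13153 and 12881 against 5236 and 5379 (log2 -1.29, adjusted p = 0.000165). FBXO5, or EMI1, an inhibitor of the APC/C, fell by 1.01 log2, and MAD2L1BP, which removes MAD2L1 from its checkpoint complex, by 0.59. With the mean of their probes the calls of SMC3 (-0.09) and MAD2L1BP (-0.13) were lost.

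Of 14 genes encoding MuvB, B-MYB, pocket proteins and their partners 5 fell and 2 rose, beside 28.7% and 14.9% of all genes. MYBL2, which encodes B-MYB, rose from 7455 and 8038 to 14433 and 12063 (log2 0.77, SE 0.11, adjusted p = 0.00259), whereas FOXM1, described above, fell. E2F5 (log2 -1.10) and RBBP4 (-1.05), a MuvB subunit that also serves other chromatin complexes, fell, and TFDP1, the dimerisation partner of E2F factors, rose by 0.66.

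**Figure D5:**
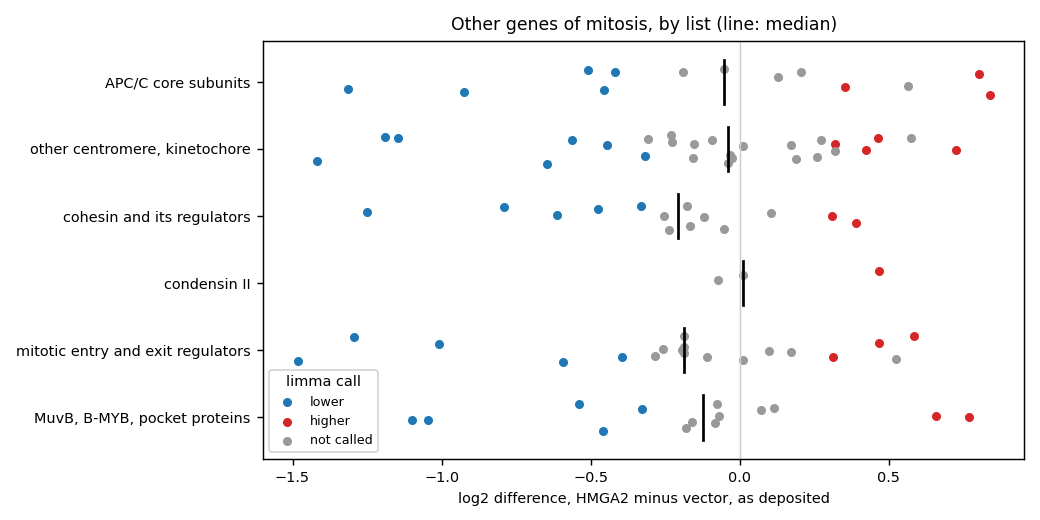
Log2 difference as deposited (horizontal axis) of the 90 other genes of mitosis that were tested, in 6 lists (rows), coloured by limma call, with a black line at each list's median. Calls in both directions are seen in 5 of the lists, and condensin II holds 1 rise and 0 falls. Among all genes 28.7% were called lower and 14.9% higher.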

How the data were processed

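Per the labels' protocols, amplified RNA of 4 samples carried Cy5, and each sample had an oligonucleotide array to itself. The deposited intensity values are whole numbers on a linear scale for 31741 probes, and the sources used here do not give how the authors scanned, background-corrected or normalized them. By the platform annotation 24740 probes match 1 gene, 977 match several and 6024 have no name here. Older symbols of 1948 probes were updated through RefSeq genes (GRCh38.p14).

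Intensities below 1 were set to 1, log2 was taken with no further normalization, each gene was represented by its brightest probe, and 13752 genes at or above the 25th percentile of mean level were kept. Differences were fitted over all of these with limma 3.58.1 in R 4.3.3 (lmFit, and eBayes with its intensity trend). P-values were adjusted by Benjamini and Hochberg's method, the threshold was 0.05, and the script was tested on simulated data. All adjusted p-values are from limma. With 2 arrays a group, the smallest two-sided p of an exact permutation test is 0.333. The number of arrays limits the precision.

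The genes, their role groups and the related lists were chosen with earlier results of these data known. Every gene of the set is accounted for. Up to 4 genes a role group get values on each array, with CCNB1, CDK1, PLK1, AURKA, AURKB, BIRC5, CENPA, TOP2A, MKI67 and FOXM1 always given, and further genes were given per array beyond this rule. Up to 4 genes of each related list, those with the largest called differences, are named. The epithelial markers and the probes of several genes named in the text were chosen after their values were seen.

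Alternatives were quantile normalization, subtraction of array medians, other filters, the mean of probes, other variance models, a block for replicate number, each array left out, an offset of 64 and a threshold of 0.01. Normexp (offset 50) before quantile normalization, a crossed block and a probe fit without dim probes were added after seeing the data. The replicate numbers did not pair the arrays.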

Additional observations from a re-analysis of the deposited data

How the results depend on the processing

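The count of 26 mitotic genes lower ranged from 23 to 26 and that of 5 higher from 5 to 7 when each array was left out in turn. With array medians subtracted 16 were lower, and 11 were higher under that scaling, under quantile normalization and under normexp with quantile normalization. Their median difference, -0.21 log2, became 0.0065 with array medians subtracted and ranged from -0.25 to -0.21 with arrays left out. In the 15 alternatives other than the stricter threshold 14 falls kept their call wherever they were tested, which for SPC24 was in 14 of them (ANLN, ASPM, CDK1, CENPH, CKS1B, ECT2, HMMR, MAD2L1, NDC80, NUF2, RACGAP1, SGO2, SPC24 and TTK), as did 3 rises (BIRC5, CDCA8 and CENPN). The share of all genes that kept their call in this way is not given here, so this stability cannot be called particular to mitotic genes. Subtracting array medians ended the calls of CCNB1, CCNB2, CKS2, PLK4, UBE2C, ESPL1, DLGAP5, PRC1, TOP2A and FOXM1. Leaving out vector replicate 1 ended those of UBE2C, ESPL1 and DLGAP5, leaving out vector replicate 2 those of NCAPD2 and NCAPG, and leaving out HMGA2 replicate 1 those of ESPL1 and NCAPD2. The fit with no intensity trend ended the calls of NEK2 (adjusted p = 0.0517), ESPL1, NCAPD2 and TOP2A, and the replicate block that of NCAPG (adjusted p = 0.0576). With an array left out, a lone array was assumed to vary like those of the other group. With the mean of probes SGO1 became -0.064, NCAPD2 -0.082, AURKB -0.053, SMC2 -0.019 and BUB3 -0.38 (adjusted p = 0.0176). Genes that were not called turned in sign with array medians subtracted: CDC25C (0.14), BUB1 (0.0062), FZR1 (0.0069), CENPA (0.039), CEP55 (0.19), SMC4 (0.033) and MKI67 (0.15). After quantile normalization, without and with normexp, CDC25C was 0.0688 and 0.0685, FZR1 0.0475 and 0.0460, CEP55 0.0888 and 0.0886, and MKI67 0.0546 and 0.0544. With arrays left out CDC25C ranged from -0.17 to 0.016, BUB1B from -0.015 to 0.22, CENPF from -0.073 to 0.16, SPC25 from -0.13 to 0.26, SMC2 from -0.0028 to 0.15, NCAPH from -0.11 to 0.18 and MKI67 from -0.15 to 0.021. At a threshold of 0.01 the related lists held 17 falls and 7 rises. They held 24 rises after quantile normalization, with or without normexp, beside 28.0% of all genes with quantile normalization alone. With array medians subtracted they held 14 falls, beside 18.0% of all genes. Rises among all genes, 2051 as deposited, numbered 3844 after quantile normalization, 3853 with normexp too, 3715 with array medians subtracted and 1037 at 0.01, and falls numbered 2479 with array medians subtracted, against 3943. The HMGA2 probes gave -0.19 and 0.59 after quantile normalization, neither called, and leaving out dim probes ended the call at 0.37 (adjusted p = 0.129). Deviations of same-numbered arrays correlated at r = -0.20 across genes. With the replicate block 25 mitotic genes were lower and 6 higher, and with the crossed block 26 and 7. Shares of all genes under the blocks are not given here. The causes were not tested.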

Other observations

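Probes that match several genes were left out of the comparisons, and 2 of them match a mitotic gene and its close relatives. The probe shared by PTTG1, PTTG2 and PTTG3P read 37813 and 35949 on the vector-labelled arrays and 16393 and 17277 on the HMGA2-labelled ones, a log2 difference of -1.13 (adjusted p = 8.77e-05 in the probe fit without dim probes), while the probe of PTTG1 alone was dim on all 4 arrays. The probe shared by AURKA and its pseudogene AURKAPS1 read 8286 and 6912 against 1400 and 1303, at -2.49 log2 (adjusted p = 2.61e-05), whereas the probe of AURKA alone gave 0.11. How much each relative adds to these signals was not tested.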
